A study of Mus musculus with 7 samples.

Results

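The miR-297, miR-466, miR-467 and miR-669 families are mouse microRNAs (miRNAs) most of whose hairpins lie as a long array of near-copies inside an intron of Sfmbt2. Members were taken by name, as every entry of the authors' comparison tables that belongs to 1 of these 4 families, on either arm of the hairpin. This gave 19 of the 757 names, namely 2 of miR-297, 4 of miR-466, 3 of miR-467 and 10 of miR-669. All 19 had at least 1 read in the 7 hippocampal libraries. Their choice nearly fixed this in advance, since 755 of the 757 names carried a value. Of the 19, 3 (miR-669c, miR-467e and miR-669h-5p) reached a mean of 10 reads per library, while 16 did not.

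A miRNA is a short RNA cut from a hairpin, and it guides silencing of messenger RNAs chiefly through its seed, the bases near its 5′ end that pair with the target. Sfmbt2 encodes a Polycomb-group protein and is an imprinted gene, read from the paternal copy in extraembryonic tissue. Its intronic miRNA array is specific to rodents, is rich in UG and CA repeats, and is best known for its high activity in the placenta.

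Small RNA was measured in the hippocampus of adult male C57BL/6 mice of 3 to 5 months. NIPP1* mice carried a tetO-driven fragment of the nuclear inhibitor of protein phosphatase 1 (PP1), fused to EGFP, and a reverse transactivator under the CaMKIIalpha promoter, which is active in forebrain neurons, so that doxycycline in the food switched the fragment on in these neurons. The control group consisted of littermates, labelled wildtype. Trained mice explored objects in an object recognition task, and non-trained mice met the same arena without objects. By label, library 1 came from non-trained control mice and library 2 from non-trained NIPP1* mice. Trained control mice gave libraries 3, 4 and 5, and trained NIPP1* mice gave libraries 6 and 7. Hippocampi of 6 mice per group were pooled, how mice were divided among the libraries of a group was not given in the sources used here, and p-values therefore measure the spread between libraries, which may be technical. In pooled tissue, fewer cells that make a miRNA and less of it per cell cannot be told apart.

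The deposited value of a mature locus was its percent of a library's miRNA reads, and it is written here as reads per 1000000 miRNA reads (RPM). The libraries held between 7285391 and 10017641 miRNA reads. Intervals on levels and shares, and on ratios between the non-trained libraries, cover counting error only. They take reads as independent, which amplified reads are not, so they may be too narrow. Intervals on log2 fold changes come from the fitted model and the spread between libraries. Markers of neurons (miR-124, miR-128, miR-9 and miR-132) summed to between 206888 and 234669 RPM, with all 4 detected. Library 3 weighed heavily on the spread, since leaving it out raised the miRNAs with an unadjusted limma p under 0.05 from 28 to 108 of 476 for training in controls and from 34 to 113 for genotype after training, with 0 called after adjustment either way. The group means in the authors' own tables did not follow the labels of the trained libraries. The trained control column there equalled the mean of libraries 6 and 7 within 0.0128% (root mean square over 319 miRNAs), against 17.1% for the labelled libraries 3, 4 and 5, and the trained NIPP1* column equalled the mean of libraries 3, 4 and 5. The groups below follow the labels, and each contrast that depends on the genotype of trained libraries is also given with the assignment of the tables.

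The mature sequences below carry the results on levels and on copy number. They were read from the mouse genome build NCBIM37 (mm9) at the deposited positions, 5′ to 3′ on the plus strand of chromosome 2, and capitals mark the seed, bases 2 to 8. The first 3 are the members abundant enough to be tested.
miR-669c: aUAGUUGUguguggaugugugu
miR-467e: aUAAGUGUgagcauguauaugu
miR-669h-5p: aUGCAUGGguguauaguugagugc
The next 4 share a stretch of miR-467e outside the seed.
miR-467d: uAAGUGCGcgcauguauaugcg
miR-467c: uAAGUGCGugcauguauaugug
miR-669d: aCUUGUGUgugcauguauaugu
miR-669l: aGUUGUGUgugcauguauaugu
The next 2 come from different families and share a seed.
miR-669m-3p: aUAUACAUccacacaaacauau
miR-297a-5*: aUAUACAUacgcacauacccau
The last 2 are the members with the most copies in the genome.
miR-466b-3p: aUACAUACacgcacacauaaga
miR-466b-5p: uGAUGUGUguguacauguacau

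The 19 members held 17 distinct seeds. The seed AAGUGCG was shared by miR-467c and miR-467d, and the seed UAUACAU by miR-669m-3p and miR-297a-5*. The 3 most abundant members each had a seed that no other member carried, although miR-467e and miR-467c were identical at 19 of 21 aligned bases when miR-467e was shifted by 1 base. miR-467c and miR-467d, identical at 20 of 22 bases, in contrast shared theirs.

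The run GCAUGUAUAUG was found in 5 members (miR-467c, miR-467d, miR-467e, miR-669d and miR-669l) and, on either strand, in 0 of the other sequences, so its share of all 756 mature sequences was 0.661%. The repeat UGUGUG was present in 7 members and its reverse complement CACACA in 6 others, so 13 of 19 (68.4%) held it on either strand, against 26 of 756 (3.44%) of all mature sequences. The first run was picked from the members, as the longest shared by at least 5 of them. Its presence in 5 members was thus set by that choice. These matches describe the sequences and are not binding sites. Since miR-669d and miR-669l were identical at 21 of 22 bases, as were miR-669l and miR-669o-5p when shifted by 1 base, the assignment of reads among these low members is uncertain.

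The array itself was mapped first. The annotation (GENCODE M1) placed 79 hairpins of the 4 families in the genome, of which 68 lay in intron 11 of the longest model of Sfmbt2 (chr2:10292137-10516880, plus strand, 24 exons) and 11 lay elsewhere. All loci of the members were within Sfmbt2, on its strand, over a cluster of 51.3 kb. Reads were listed at 21 of the 68 intronic hairpins (30.9%) and at 0 of the 11 others in the tracks used here.

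The abundant hairpins lay close together near the 3′ end of the array. Mir467e (chr2:10427348-10427434) gave 436 reads over the 7 libraries and Mir669c (chr2:10430923-10431031), which starts 3.58 kb further on, gave 1625. Between them stood 4 hairpins, of which 1, Mir467d (chr2:10429257-10429341), had reads, with 18. Mir669h (chr2:10439782-10439906), a further 8.86 kb downstream, gave 72 reads. Neighbouring hairpins of 1 intron thus differed widely in the mature miRNA counted from them.

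Position, reads and uniqueness of sequence within the array are given here as a description over segments that were set after the map was seen. The first 10 kb of the array held 18 hairpins, 9 with a listed read, and 43 reads. The stretch from 10 to 36 kb held 27 hairpins, 2 with a listed read, which were the 2 copies that gave the same single read of miR-669p*. The last stretch, to 52 kb, held 23 hairpins, 10 with a listed read, and 2170 reads. Each read was counted once here, although the tracks list miR-669d, miR-669p* and miR-669m-3p at 2 hairpins each. The median share of 22-base windows of a hairpin that occurred once in the genome was 25.98%, 0% and 36.4% in these segments. Over the whole intron, this share had a median of 34.8% for the 21 hairpins with a listed read and of 0% for the 47 without, whose windows had a median of 12 copies. The 11 hairpins outside Sfmbt2 had a median of 38.0% and no listed read, so a higher share did not go with reads there.

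**Figure D1:**
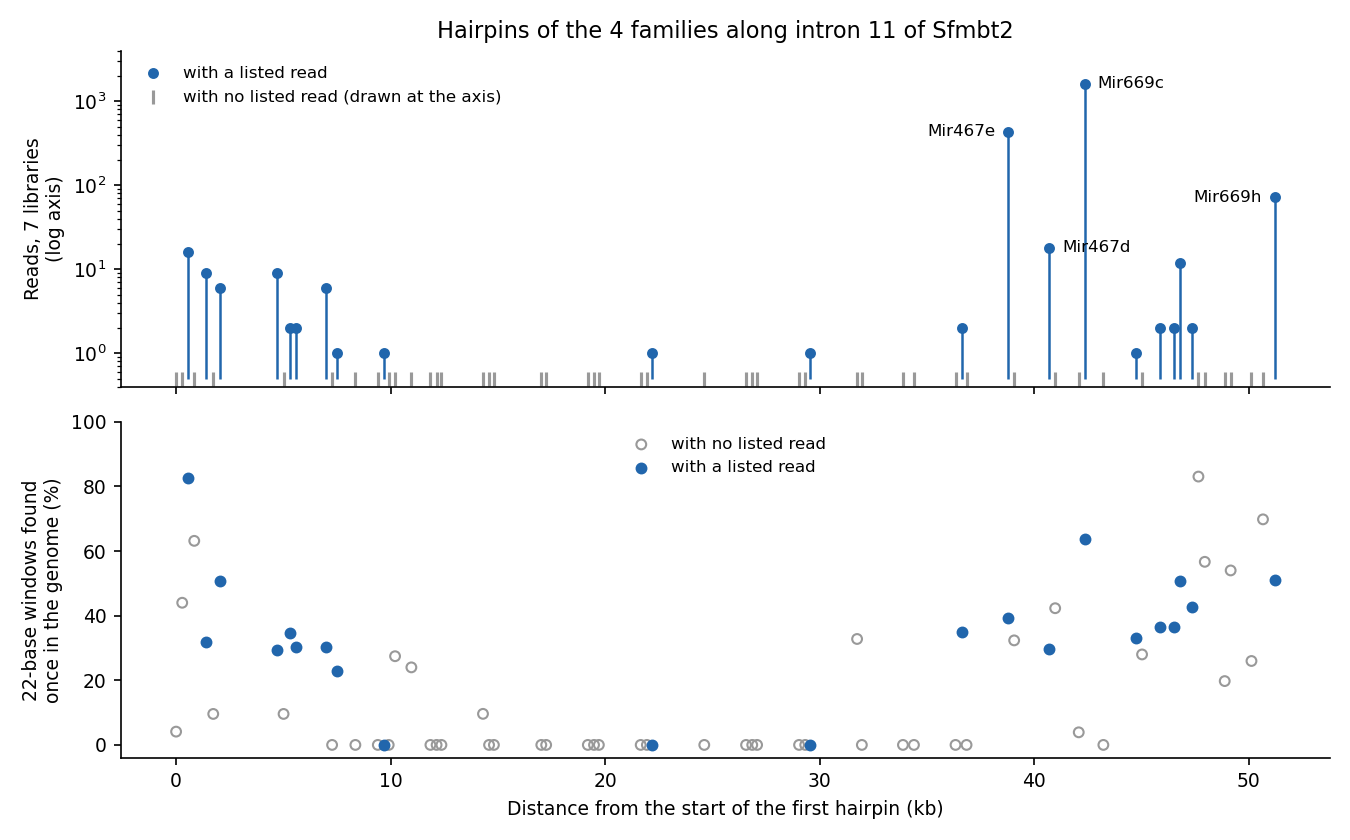
Hairpins of the 4 families along intron 11 of Sfmbt2, by distance from the first hairpin in kb. The upper panel shows reads summed over the 7 libraries on a log axis, with grey ticks for hairpins without a listed read and with the reads of miR-669d, miR-669p* and miR-669m-3p drawn in full at both of their hairpins, and the lower panel shows the percent of 22-base windows found once in the genome; reads reach 1625 at Mir669c, and the middle of the array has few unique windows and 1 read, drawn at 2 hairpins.

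Within the array, too, the 2 measures did not always go together. Mir466g, Mir669i and Mir669b had 83.1%, 69.8% and 63.2% of windows with a single copy and no listed read. Mir466b-8, Mir669p-1 and Mir669p-2 had 0% and a listed read, and for the abundant Mir669c and Mir467e the share was 63.6% and 39.4%. Hairpins named Mir467a or Mir669a, 20 in all, had mostly repeated windows, and 1 of them had a listed read. Copies of a mature sequence were counted too, and 13 members occurred once in the genome, whereas miR-466b-3p occurred 15 times and miR-466b-5p 12 times. These were the 2 of all 756 mature sequences with more than 5 copies, while 92.9% had 1. The tracks list each of the 2 at 1 hairpin, although 15 and 11 of their copies lie in Sfmbt2. A hairpin without a listed read can therefore hold the same mature sequence as a listed one. The authors counted reads that mapped uniquely to miRNAs, and the part of that rule in the low values of repeated hairpins was not tested.

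In level, the members formed a small share of hippocampal miRNA. They gave 2214 reads in total, or 0.00378% of all miRNA reads, and their summed level was 42.3 and 35.8 RPM in the non-trained control and NIPP1* libraries, 37.2, 38.3 and 42.2 RPM in libraries 3, 4 and 5, and 40.8 and 29.7 RPM in libraries 6 and 7. The trained control group had a mean of 39.2 RPM ± 2.64 (SD, n = 3) and the trained NIPP1* group 35.2 RPM ± 7.86 (SD, n = 2). The non-trained libraries lay within or just above the range of the trained ones, so the groups overlapped, and no test was made of the sum.

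Reads were concentrated in few members and on 1 arm. miR-669c made up 73.4% of the reads, miR-467e 19.7% and miR-669h-5p 3.25%. By family, miR-669 gave 78.3% and miR-467 20.8%, with 17 reads for the 4 miR-466 members and 3 reads for the 2 miR-297 members. The 11 members of the 5p arm held 98.6% of the reads and the 8 of the 3p arm held 30 reads. The 3 abundant members, all of the 5p arm, carried this difference, and the other 16 had 51 reads on the 5p arm and 30 on the 3p arm.

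A comparison with another large miRNA array shows how low these levels were. Products of the cluster from miR-379 to miR-410, an imprinted array of miRNAs active in brain, had a mean of at least 10 reads in 47 of 56 cases (83.9%), all mature sequences in 476 of 756 (63.0%), and the members in 3 of 19 (15.8%). The median over products of the mean level was 43.0 RPM for that cluster, 5.64 RPM for all mature sequences and 0.103 RPM for the members. That cluster summed to between 12493 and 15214 RPM per library. Only its products whose name could be joined to a sequence were counted. The 91 sequences left without a name, at 3.2 RPM or less, may include low products of the cluster. By contrast, 2 members that the authors listed at 0 were joined by hairpin and arm, so the sets were not chosen alike.

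miR-669c, at chr2:10430946-10430967 on the 5p arm of Mir669c, ranked 266 of 756 by mean level. Its level was 28.7 RPM in the non-trained control and 26.01 RPM in the non-trained NIPP1* library. The trained control libraries gave 25.9, 30.3 and 32.9 RPM and the trained NIPP1* libraries 30.5 and 21.6 RPM. Library 7 was the lowest and library 5 the highest, and the trained groups overlapped. No group stood apart.

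miR-467e, at chr2:10427358-10427379 on the 5p arm of Mir467e, ranked 356. Its level was 10.9 RPM in the non-trained control and 7.31 RPM in the non-trained NIPP1* library. The trained control libraries gave 8.17, 5.03 and 6.78 RPM and the trained NIPP1* libraries 8.24 and 5.79 RPM. The non-trained control was above all 6 other libraries, with a 95% Poisson interval of 8.85 to 13.3 RPM that reached below the upper bounds of libraries 2, 3, 5 and 6, and the trained groups overlapped.

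miR-669h-5p, at chr2:10439801-10439824 on the 5p arm of Mir669h, ranked 474 with 72 reads over all libraries. Its level was 1.24 RPM in the non-trained control and 0.99 RPM in the non-trained NIPP1* library. The trained control libraries gave 1.22, 1.68 and 1.79 RPM, from 10, 14 and 14 reads, and the trained NIPP1* libraries 0.96 and 0.80 RPM, from 7 and 8 reads. Here the trained groups did not overlap, with both NIPP1* libraries the lowest of the 7, but the 95% Poisson interval of library 6 (0.386 to 1.98 RPM) covered all 3 trained controls, and that of library 7 (0.345 to 1.57 RPM) covered 1 of them.

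**Figure D2:**
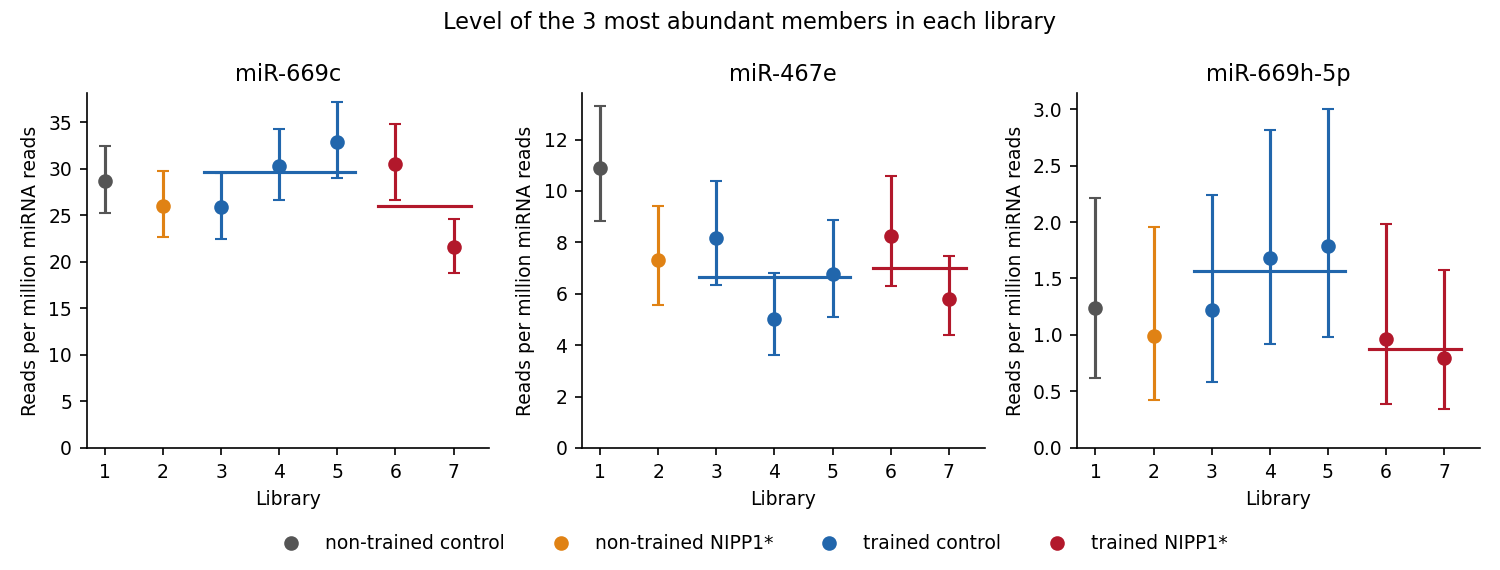
Level in RPM of miR-669c, miR-467e and miR-669h-5p in libraries 1 to 7, coloured by labelled group, with 95% Poisson intervals as bars and the means of the trained groups as horizontal lines. Trained control and trained NIPP1* libraries overlap for miR-669c and miR-467e, and for miR-669h-5p lie at 1.22 to 1.79 and 0.80 to 0.96 RPM.

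The order of these levels was the same in every library. The lowest value of miR-669c (21.6 RPM) was above the highest of miR-467e (10.9 RPM), and the lowest of miR-467e (5.03 RPM) above the highest of miR-669h-5p (1.79 RPM). The lowest of miR-669h-5p (0.80 RPM) was in turn above the highest of miR-467d (0.49 RPM), and below miR-467d the members overlapped. These values are reads of whole molecules of 22, 22, 24 and 22 bases and were not divided by length.

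The spread of miR-669c and miR-467e between libraries exceeded counting error. The variance of their reads over the 7 libraries was 4.56 and 4.38 times that of Poisson counts, and that of miR-669h-5p was 0.947 times. The median over the 265 tested miRNAs whose mean lay from 10 to 500 reads was 2.63 times. The levels of miR-669c and miR-467e did not go together over the 7 libraries (Pearson r = 0.11, Spearman rho = 0.071, given as a description of libraries that share groups).

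The share of miR-467e in the reads of these 2 members was also computed, a measure chosen after their values were seen and given as a description. It was 27.6% (exact 95% binomial interval 23.0% to 32.5%) in library 1 and 21.9% (17.1% to 27.4%) in library 2. It was 24.0%, 14.2% and 17.1% in libraries 3, 4 and 5, and 21.3% and 21.2% in libraries 6 and 7. Libraries 4 and 5 were the lowest, and the 3 trained controls spanned both sides of the trained NIPP1* libraries.

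**Figure D3:**
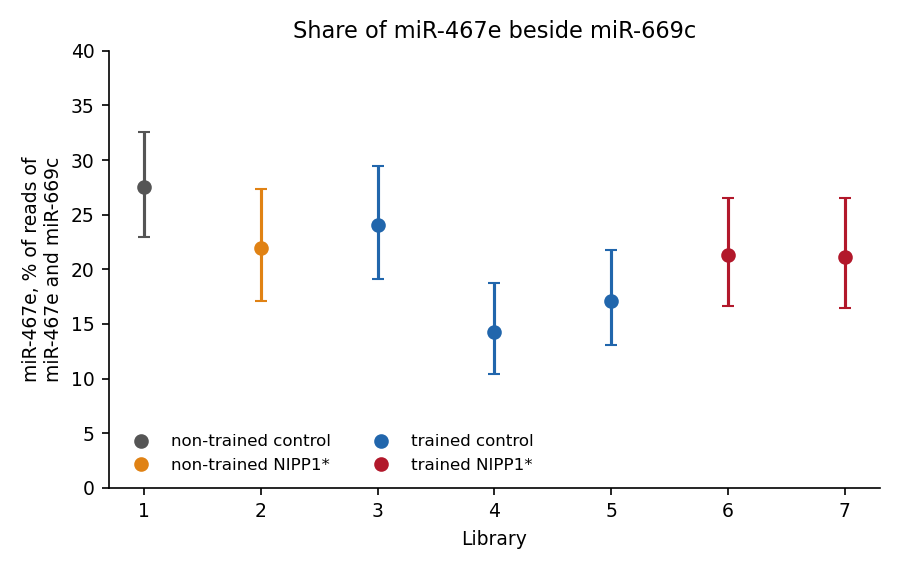
Share of miR-467e in the reads of miR-467e and miR-669c, in percent, for libraries 1 to 7 coloured by labelled group, with exact 95% binomial intervals as bars. The share runs from 14.2% in library 4 to 27.6% in library 1, and the trained groups overlap.

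The other members were detected by single reads. The 16 of them gave 81 reads, with at most 5 in any library, and 64 of their 112 values were 0, where a count of 0 allows between 0.299 and 0.412 RPM depending on the library (3 reads). Their summed reads were 13 in library 1 and 12 in library 2, 16, 11 and 6 in libraries 3, 4 and 5, and 8 and 15 in libraries 6 and 7. These sums overlapped between all groups, and the 3 trained controls covered both the highest and the lowest.

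Of these, miR-467d was the only one seen in every library, with 2 reads in libraries 1, 2, 4 and 5, 4 in library 3 and 3 in libraries 6 and 7. miR-466n-3p had 1 and 2 reads in the non-trained libraries, 5, 1 and 0 in the trained controls and 1 and 2 in the trained NIPP1* libraries. miR-669d had 3 and 0 reads in the non-trained libraries, 1, 2 and 1 in the trained controls and 2 and 0 in the trained NIPP1* libraries. No group stood apart in any of them at these counts.

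Both arms of the Mir669e hairpin were seen, with 8 reads each. miR-669e, the 5p product, had 0 and 1 reads in the non-trained libraries, 1, 1 and 0 in the trained controls and 0 and 5 in the trained NIPP1* libraries. miR-669e*, the 3p product, had 0 and 2 reads, then 2, 1 and 2, then 0 and 1. At this depth neither arm could be called the more abundant.

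miR-467c and miR-669l had 6 reads each, and the remaining 9 members had 1 or 2 reads in all (miR-669m-3p, miR-466o-3p, miR-466b-3p, miR-669o-5p, miR-297a-5*, miR-297b-5p, miR-669p*, miR-669a-3-3p and miR-466b-5p). Of the 19 members, 6 were seen in 1 library. For 17 members the tracks matched the group means in the authors' tables within 0.0424 normalised reads, when the trained libraries were assigned as the tables had them and not as labelled. miR-466b-3p and miR-466b-5p were listed at 0 in those tables although the tracks held 2 reads and 1 read.

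Training was compared first in controls, with 476 miRNAs tested by limma on log2(RPM + 0.5), a scale that understates the change of low miRNAs. None of the 3 tested members was called, which took a p under 0.05 after Benjamini-Hochberg adjustment, where 0% of all miRNAs were called, and 0 of 3 had an unadjusted p under 0.05, against 28 of 476 (5.88%). On recovered reads edgeR called 0 miRNAs (26 with an unadjusted p under 0.05) and DESeq2 called 1, which was no member. miR-467e was at 6.66 RPM ± 1.57 (SD, n = 3) in trained controls and 10.9 RPM in the non-trained one, a log2 fold change of -0.70 (SE 0.34, 95% interval -1.50 to 0.11, limma adjusted p = 0.666). miR-669h-5p had the highest log2 fold change of the 3 (0.23, SE 0.33, limma adjusted p = 0.798; 0.42 by edgeR and 0.43 by DESeq2), and that of miR-669c was 0.041 (SE 0.27, limma adjusted p = 0.975). With the trained libraries assigned as the tables had them, the values were -0.62 for miR-467e, -0.34 for miR-669h-5p and -0.16 for miR-669c, so that of miR-467e had the same sign and the others did not. The non-trained control was a single library, taken to vary like the trained ones. It also lay outside the trained controls in oligodendrocyte markers (5461 RPM against 3266 to 3707 RPM), blood vessel markers (14890 RPM against 15553 to 18540 RPM), leukocyte and microglia markers (585 RPM against 453 to 581 RPM) and the pituitary marker (62.7 RPM against 62.9 to 75.6 RPM), and their part in these values was not tested.

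The genotype effect after training was compared next, and again none of the 3 members was called, where 0% of the 476 miRNAs were called by limma, and 0 of 3 had an unadjusted p under 0.05, against 34 of 476 (7.14%). miR-669h-5p entered the test with a mean of 10.3 reads, just above the minimum of 10. Its highest counts, 14 reads each in libraries 4 and 5, were in trained controls, so it passed through the group that is high here. miR-669h-5p was at 0.880 RPM ± 0.113 (SD, n = 2) in trained NIPP1* mice and 1.56 RPM ± 0.302 (SD, n = 3) in trained controls, a log2 fold change of -0.57 (SE 0.26, 95% interval -1.19 to 0.045, limma adjusted p = 0.639). On recovered reads it was -0.90 by edgeR (adjusted p = 0.626) and -0.89 by DESeq2 (adjusted p = 0.929). That of miR-669c was -0.20 (SE 0.21, 95% interval -0.70 to 0.30, limma adjusted p = 0.783) and that of miR-467e 0.075 (SE 0.27, 95% interval -0.56 to 0.71, limma adjusted p = 0.972). With the assignment of the tables the same sizes hold with the opposite sign. The oligodendrocyte markers miR-219 and miR-338, both detected, also separated these groups, summing to 3266 to 3707 RPM in trained controls and 4672 to 5062 RPM in trained NIPP1* libraries. The red blood cell markers miR-144 and miR-451 summed to 66.2 to 138 RPM against 145 to 272 RPM, and the pituitary marker miR-375 stood at 62.9 to 75.6 RPM against 58.9 to 61.4 RPM. The part of these markers in the result was not tested, and the other lists overlapped between the trained groups.

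In NIPP1* mice, the 3 members of the trained libraries were compared with the single non-trained one. The log2 fold changes were -0.075 (SE 0.36) for miR-467e, -0.020 (SE 0.28) for miR-669c and -0.11 (SE 0.35) for miR-669h-5p, with a limma adjusted p of 0.999 for each. None was called, where 0% of all miRNAs were, and 0 of 3 had an unadjusted p under 0.05, against 21 of 476 (4.41%). The 95% intervals ran from -0.93 to 0.78, -0.69 to 0.65 and -0.94 to 0.71, so changes within these bounds were not excluded. These bounds are no limit of detection, since a call also had to pass the adjustment over 476 miRNAs. The non-trained NIPP1* library lay outside the trained ones in markers of oligodendrocytes (4400 RPM against 4672 to 5062 RPM), red blood cells (90.1 RPM against 145 to 272 RPM), blood vessels (14865 RPM against 16362 to 17281 RPM), neurons (223462 RPM against 218786 to 219489 RPM) and pituitary (69.9 RPM against 58.9 to 61.4 RPM), whose part was not tested. With the assignment of the tables the values were -0.15, 0.18 and 0.46.

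Setting all 5 trained libraries against the 2 non-trained ones does not depend on which trained library had which genotype. The log2 fold change of miR-467e was -0.39 (SE 0.24, 95% interval -0.94 to 0.15, limma adjusted p = 0.816), the largest in size of the 3. It was -0.12 without the non-trained control and -0.67 without the non-trained NIPP1* library. Of its non-trained libraries, the control (10.9 RPM) was above the trained range of 5.03 to 8.24 RPM and the NIPP1* library (7.31 RPM) within it, whereas both non-trained libraries of miR-669c and of miR-669h-5p were within their trained ranges. The blood vessel markers, with all 3 detected, summed to 14865 and 14890 RPM in the non-trained libraries and 15553 to 18540 RPM in the trained ones, and their part was not tested. Those of miR-669h-5p and miR-669c were 0.12 (SE 0.27) and 0.030 (SE 0.18), with a limma adjusted p of 0.983 for each. None of the members was called (0% of all miRNAs), and 0 of 3 had an unadjusted p under 0.05, against 26 of 476 (5.46%).

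The training effect in NIPP1* mice minus that in controls was 0.62 (SE 0.49, 95% interval -0.55 to 1.79, limma adjusted p = 0.837) for miR-467e, on the log2 scale. Without trained NIPP1* library 6 that of miR-467e was 0.38. For the other members it was -0.35 (SE 0.48, limma adjusted p = 0.950) for miR-669h-5p and -0.062 (SE 0.39, limma adjusted p = 0.968) for miR-669c. None was called (0% of all miRNAs), and 0 of 3 had an unadjusted p under 0.05, against 37 of 476 (7.77%). With the assignment of the tables the differences were 0.47, 0.80 and 0.34. The comparisons share libraries, so their values are not independent of each other.

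**Figure D4:**
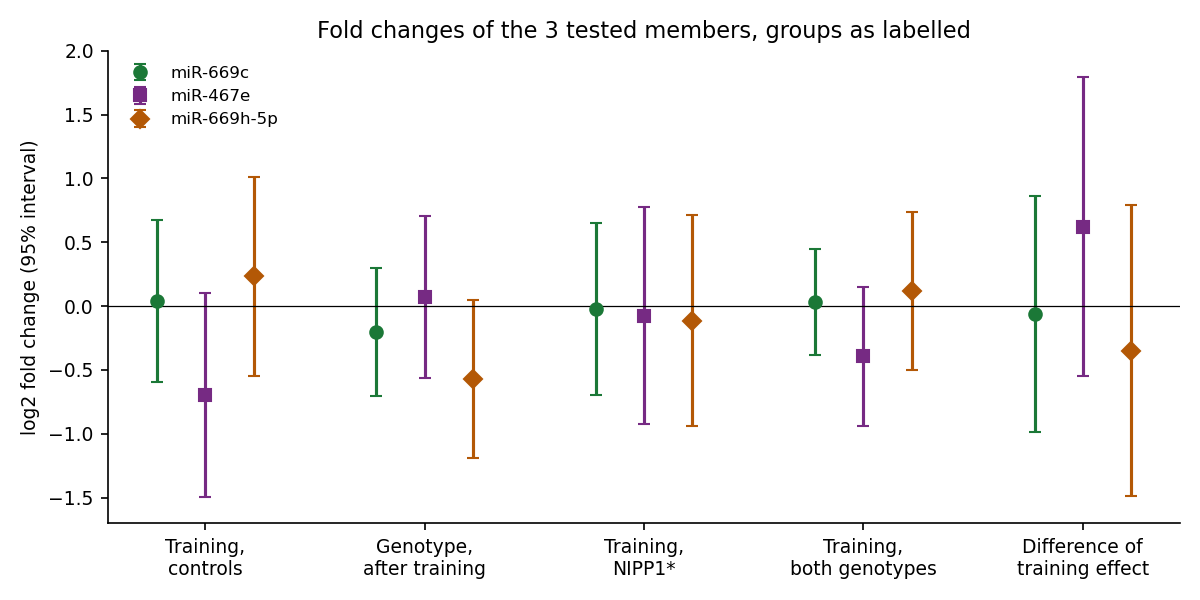
Log2 fold changes of miR-669c, miR-467e and miR-669h-5p in the 5 tested comparisons, groups as labelled, with 95% intervals from the limma model as bars and a line at no change. Every interval includes 0, and the points farthest from 0 are those of miR-467e in controls (-0.70) and for the difference of the training effect (0.62).

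Between the 2 non-trained libraries there was no replicate and no test. miR-467e had 59 reads in NIPP1* and 97 in the control, a log2 ratio of -0.58 with an exact conditional binomial 95% interval of -1.07 to -0.097, which covers counting error only. The log2 ratio of miR-669c was -0.14 (-0.41 to 0.13) and that of miR-669h-5p -0.32 (-1.84 to 1.13). No tested member passed a log2 ratio of 1 in either direction, whereas 3 of the 322 miRNAs (0.932%) with 100 reads or more on average did, and 14 of 482 (2.9%) with 10 or more. These averages are over the 2 non-trained libraries, where miR-669c passed both minimums, miR-467e that of 10 reads, and miR-669h-5p (11 and 8 reads) neither, so the shares are no matched background for the 3. Of the members with a read in both libraries, miR-467e was the only one whose interval did not include 0.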

How the data were processed

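Small RNA libraries were sequenced by the authors (base calling with CASAVA 1.7.0 per the labels) and mapped with bowtie through ncPRO-seq to NCBI37/mm9. The deposited tracks give the percent of miRNA reads of a library at each mature locus, without strand. The signal in the authors' comparison tables is a group mean of normalised reads, used to find and check names; their fold changes and p-values were not used. The 806 loci gave 756 sequences, copies being averaged, with strand from the GENCODE M1 hairpins. The steps of the low values gave back whole reads (100% of them to the printed precision). Members and lists were chosen with earlier results of these data known.

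miRNAs averaging 10 reads or more were tested by limma 3.58.1 with a trend on log2(RPM + 0.5) over all 7 libraries, with Benjamini-Hochberg adjustment and calls at 0.05. Non-trained groups, of 1 library each, borrow the spread of the trained ones. The study's Wilcoxon test cannot reach this threshold at these group sizes. Described in every library were the 8 members with the highest mean, and in each comparison all tested members. On simulated reads with changes outside abundant miRNAs, false calls stayed under a set limit, which was looser than 0.05. When abundant miRNAs changed, the library total moved and false calls rose above the intended rate. Scaling by the true depth brought them back under that limit. A moved total shifts unchanged miRNAs of any level, so the low level of the members gives no protection, and the scaling here is by total. Alternatives were TMM, edgeR 4.0.16 quasi-likelihood and DESeq2 1.42.0 tests on recovered reads, pseudocounts of 0.1 and 1 RPM, other filters, names joined by hairpin alone, fits of only the groups compared, leaving out each library, and the tables' assignment of trained libraries. R 4.3.3 was used.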

Additional observations from a re-analysis of the deposited data

How the results depend on the processing

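No tested member was called under any alternative run. Over all miRNAs, limma called 0 in each of the 5 comparisons at every setting it was run with, including those that leave out a library (0 to 0). On all libraries as labelled, edgeR called 0 and DESeq2 called 1 for training in controls, 1 for genotype after training, 2 for training in NIPP1*, 1 for training over both genotypes and 2 for the difference, none of them a member. Between the non-trained libraries, a minimum of 10 reads in place of 100 gave 14 miRNAs past a log2 ratio of 1 in place of 3. With TMM, or with every locus counted, the sums of the members kept within 1 SD or the counting interval. Leaving out a library gave 37.8 to 40.3 RPM in trained controls and 29.7 to 40.8 RPM in trained NIPP1* mice. In groups this small such means have to stay within 1 SD, so these ranges are no measure of stability.

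Some signs turned. With the assignment of the tables miR-669c was at -0.16 for training in controls, 0.20 for genotype, 0.18 for training in NIPP1* and 0.34 for the difference; miR-669h-5p was at -0.34, 0.57, 0.46 and 0.80; and miR-467e was at -0.075 for genotype. By edgeR, miR-467e was at -0.0091 for genotype. For training in NIPP1*, miR-669c was at 0.0066 with TMM, 0.019 with edgeR and 0.036 with DESeq2. Leaving out 1 library at a time, miR-669c ran from -0.035 to 0.14 for training in controls, -0.44 to 0.045 for genotype, -0.27 to 0.22 for training in NIPP1*, -0.039 to 0.12 for training over both genotypes and -0.31 to 0.18 for the difference, and miR-467e from -0.16 to 0.31 for genotype and -0.31 to 0.16 for training in NIPP1*. Without a turn of sign, training over both genotypes ran from -0.67 to -0.12 for miR-467e, the difference between genotypes from 0.38 to 0.86 for miR-467e, and training in NIPP1* from -0.20 to -0.029 (without library 7) for miR-669h-5p. For training over both genotypes the range was 0.0062 to 0.23 for miR-669h-5p, which was at 0.26 by edgeR and 0.28 by DESeq2. For training in controls, leaving out 1 library at a time gave 0.15 to 0.36 for miR-669h-5p. The genotype values under the assignment of the tables had to turn, since it exchanges the 2 trained groups, and the cause of the other turns was not tested. Over its alternatives, the adjusted p of miR-467e for training in controls ran from 0.185 to 0.994 and that of miR-669h-5p for genotype from 0.201 to 0.994.

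No paired analysis was possible because the labels give the libraries no replicate numbers, and those used here only name libraries in the order of deposit. Depth limits the 16 low members, for which 1 library adds at most 5 reads.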
